A study of Mus musculus with 7 samples.

Results

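The 30 genes described here make cholesterol and fatty acids or control their synthesis. They were taken by gene name from a count table of 52459 gene names, and all 30 were in it. The table holds bulk RNA sequencing of articular chondrocytes, taken from mouse femoral heads, grown as primary cultures in medium with serum and treated for 24 h. The 7 libraries are 2 with vehicle (replicates 1 and 2), 2 with TGFβ1 at 5 ng/ml (replicates 1 and 3) and 3 with BMP2 at 100 ng/ml (replicates 1, 2 and 3). No genotype, strain or age is given in the labels, and nothing says whether replicates are separate animals or cultures, so p-values measure only how these samples spread, and that spread may be technical.

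Cholesterol is built from acetyl units that are joined by HMG-CoA synthase, pass through mevalonate to farnesyl diphosphate and squalene, and are closed into the sterol ring and trimmed. Fatty acids are built from the same acetyl units by acetyl-CoA carboxylase and fatty acid synthase, and are then lengthened and desaturated. Most genes of both paths are targets of the SREBP transcription factors, which the INSIG proteins hold in the endoplasmic reticulum when sterols are plentiful. In growth cartilage, loss of cholesterol synthesis or of SREBP activation is known to disturb chondrocytes, partly through hedgehog signalling and matrix secretion.

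Library totals ran from 6747997 to 18047765 counts, and the TGFβ1 libraries were the deepest. The share of counts in ribosomal protein genes was 6.11% ± 0.0231 with TGFβ1 (SD, n = 2), against 1.03% ± 0.0389 with vehicle (n = 2) and 1.13% ± 0.180 with BMP2 (n = 3). The TGFβ1 effect followed transcript length: its median log2 fold change over genes was 2.87 up to 750 nt and −0.57 above 7000 nt, while the same medians for BMP2 were 0.08 and −0.08. Values for TGFβ1 are therefore also given from a second fit that removes each library's trend on transcript length and then on GC, called the length offset. BMP2 replicate 1 stood apart from replicates 2 and 3, with a chi-square per gene of 14.4 and 18.6 against 1.88 between the other two, 4.73 between the vehicle libraries and 42.9 between the TGFβ1 libraries. The defining chondrocyte gene Col2a1 stood at 26949 to 35844 CPM in the 7 libraries. Levels are given in CPM, counts scaled to a common library size. A gene is said to have risen or fallen if edgeR's adjusted p for it was under 0.05. A lower level in a bulk library cannot be told apart from fewer cells that carry the transcript.

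Of the 30 genes 29 had enough counts to be tested. The one left out was Idi1, the isomerase of the mevalonate path, with 0 to 6 counts per library. Its principal transcript shares a stretch of 684 nt at 100% identity with Gm13502, which is 1 of 4 genes that hold a similar stretch (at least 200 nt at 90% identity). Fdps, the farnesyl diphosphate synthase gene, has 6 such genes, the longest stretch being 1066 nt at 96.7% identity. Fdps also shares 26.7% of its exon bases with Gm43738 on the same strand. Acaca, which encodes acetyl-CoA carboxylase, shares 6118 nt at 99.2% identity with Gm5182, and Fdft1, the squalene synthase gene, 1249 nt at 97.4% with Gm6781. Of the exon bases of Fdft1, 18.3% are shared with Ctsb on the other strand. The sources used here do not say how reads that map to several places were counted, so the levels of these 4 genes are uncertain. The same holds for 4 genes with shorter or less similar stretches. Hmgcs1 shares 462 nt at 100% identity with Gm48342, which overlaps 12.1% of its exon bases on the other strand, and Elovl6 shares 805 nt at 97.4% with Gm11295. Scd1 shares 1053 nt at 91.4% with Scd3, and Scd2 shares 623 nt at 95.5% with Scd1.

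In the vehicle libraries the desaturase genes led the set per unit of length. Scd2 stood at 57.0 CPM per kb of principal transcript and Scd1 at 25.5, ahead of Msmo1 (21.9), Srebf1 (16.9), Sqle (16.2), Cyp51 (14.7) and Insig1 (13.3). Fasn, the fatty acid synthase gene, was at 6.29 CPM per kb and Acacb, the mitochondrial carboxylase gene, at 0.145. Scd1 and Scd2, which encode stearoyl-CoA desaturases, held 38.5% ± 0.527 of the summed CPM of the 30 genes with vehicle (n = 2), 33.6% ± 3.35 with TGFβ1 (n = 2) and 50.7% ± 0.0884 with BMP2 (n = 3). The sum itself was 1134 and 1121 CPM with vehicle, 873 and 864 CPM with TGFβ1, and 1922, 2001 and 2023 CPM with BMP2. Without Scd1 and Scd2 it was 693 ± 0.209, 577 ± 33.7 and 977 ± 25.0 CPM in the same order. The 3 groups did not overlap in either sum.

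**Figure D1:**
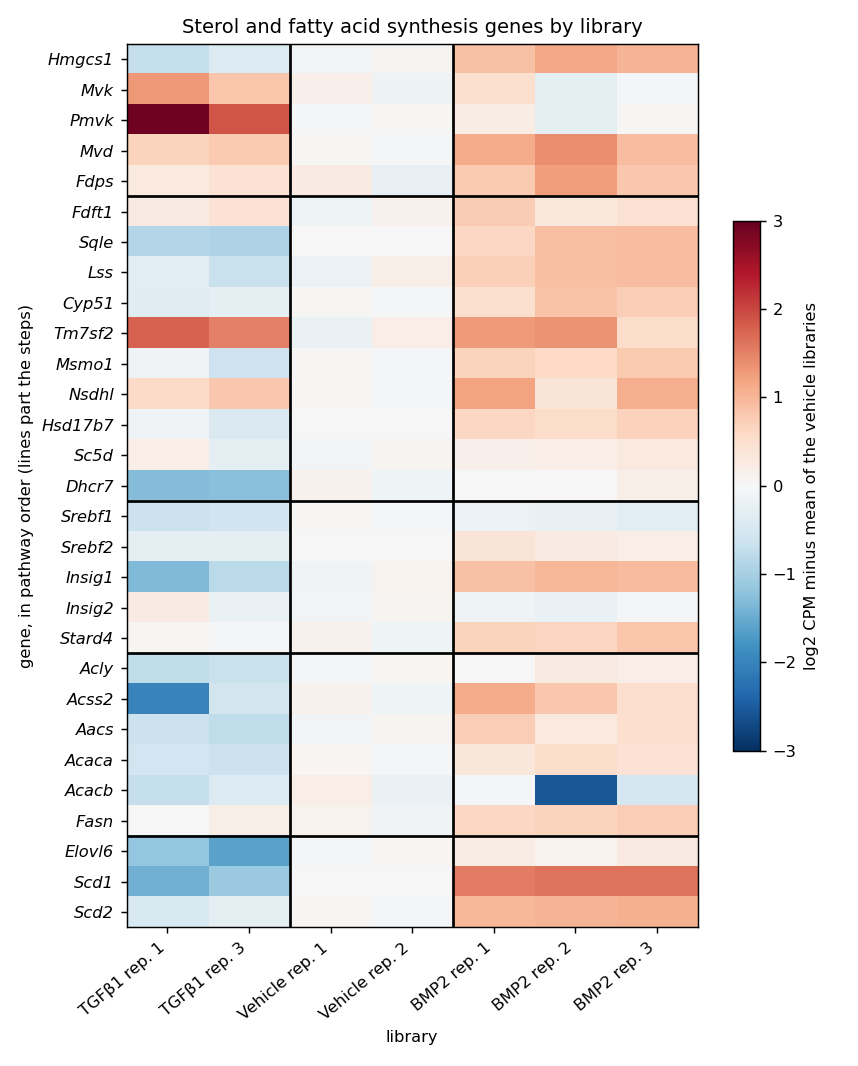
Heat map of the 29 tested genes (rows, in pathway order) in the 7 libraries (columns); colour gives log2 CPM (prior count 1) minus the mean of the vehicle libraries. Most rows are above the vehicle mean in the BMP2 columns (24, 24 and 25 of 29 genes) and below it in the TGFβ1 columns (10 and 8 of 29 above). Of all 13367 tested genes, 6756, 6531 and 6628 were above it in the BMP2 libraries and 6604 and 6657 in the TGFβ1 libraries.

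The first question is how BMP2 changes these genes against vehicle. With BMP2, 15 of the 29 tested genes rose and 0 fell (26 fold changes were positive and 3 negative), where 5.33% of all tested genes rose and 6.15% fell (11.5% together). The genes were chosen with earlier results of these data known, so this contrast is a description and no test of the set. At an unadjusted p under 0.05 the edgeR fit had 1 lower gene, Srebf1. DESeq2 called 11 of the 29 genes risen and 0 fallen, where it called 643 risen and 590 fallen over all genes. The 4 genes that did not pass there were Nsdhl (1.00), Hsd17b7 (0.64), Aacs (0.54) and Acaca (0.45). With the length offset 17 rose and 0 fell (6.76% and 6.28% of all tested genes). The median log2 fold change was 0.68 over the 29 genes and 0.00 over all 13367. Rises were found at every step of the path: in 2 of 5 mevalonate genes, 6 of 10 genes from squalene to cholesterol, 2 of 5 control and transport genes, 3 of 6 genes of acetyl supply and fatty acid synthesis, and 2 of 3 genes of elongation and desaturation. In 22 genes every BMP2 library was above both vehicle libraries, and in 1, Srebf1, every one was below (21.9% and 22.7% of all tested genes).

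Among the desaturases, Scd1 (chromosome 19, 44394455 to 44407879, mm10) stood at 124 and 123 CPM with vehicle, and at 356, 380.2 and 382 CPM with BMP2. Its rise of 1.60 on the log2 scale (SE 0.13, adjusted p = 5.11e-05) was the largest among the 29 genes. Its neighbour Scd2 (chromosome 19, 44293674 to 44306864) went from 317 and 305 CPM to 618, 634 and 646 CPM, by 1.03 (SE 0.12, adjusted p = 3.43e-04). Neither gene's groups came near each other. Elovl6, which lengthens palmitate, stood at 17.9 and 19.6 CPM with vehicle and 21.8, 20.02 and 22.6 CPM with BMP2; the ranges were separate but close, and the change of 0.20 did not pass (adjusted p = 0.474).

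The entry enzyme of the mevalonate path, HMG-CoA synthase (Hmgcs1, chromosome 13, 119690379 to 119708260), was at 26.3 and 29.7 CPM with vehicle and at 51.3, 62.7 and 57.1 CPM with BMP2. It rose by 1.02 (SE 0.14, adjusted p = 0.00115). Mvd, the mevalonate diphosphate decarboxylase gene, rose by 1.16 (SE 0.23, adjusted p = 0.00795) from 3.41 ± 0.0902 to 7.73 ± 1.30 CPM. The kinase genes Mvk and Pmvk had fold changes of 0.11 and 0.03, and their ranges overlapped those of vehicle. Fdps was higher in every BMP2 library (3.52, 4.91 and 3.57 CPM, against 2.41 and 1.67), but its fold change of 0.95 (SE 0.30) did not pass at adjusted p = 0.0684. Leaving out either vehicle library ended the call of Mvd (1.19 without replicate 1, 1.14 without replicate 2), and Fdps passed without the filter on low counts (0.97).

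Squalene epoxidase (Sqle, chromosome 15, 59315077 to 59331192), the first enzyme of the path to use oxygen, stood at 45.2 and 43.9 CPM with vehicle and at 68.4, 83.4 and 84.8 CPM with BMP2. It rose by 0.82 (SE 0.13, adjusted p = 0.00212). Lss, which closes the sterol ring, rose by 0.84, and the lanosterol demethylase gene Cyp51 by 0.70, from 57.7 ± 2.04 to 94.1 ± 12.1 CPM. Nsdhl (0.99), the methylsterol oxidase gene Msmo1 (0.69) and Hsd17b7 (0.62), which act together to strip methyl groups from the ring, rose as well. The 4 that did not pass were Tm7sf2, a sterol reductase gene (1.13, SE 0.41, at 0.939 ± 0.194 CPM with vehicle), Fdft1 (0.52), the desaturase gene Sc5d (0.22) and Dhcr7 (0.07), which encodes the last reductase before cholesterol. Dhcr7 stood at 9.63 and 8.13 CPM with vehicle and at 8.84, 8.88 and 10.1 CPM with BMP2, so its groups overlapped. Fdft1 passed with the length offset (0.56) and without the filter (0.54).

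Of the genes that control the path, Insig1 (chromosome 5, 28071363 to 28078662), an SREBP target whose protein retains SREBP, rose from 33.2 and 38.6 CPM to 65.8, 71.2 and 68.8 CPM, by 0.93 (SE 0.15, adjusted p = 0.00318). Stard4, a carrier of cholesterol within the cell, rose by 0.71 (SE 0.13, adjusted p = 0.00700), from 20.2 ± 2.76 to 33.1 ± 2.30 CPM. Insig2, the related gene, had a fold change of −0.13 with overlapping ranges. Srebf2, which encodes the SREBP mainly tied to sterol synthesis, stood at 48.9 and 48.0 CPM with vehicle and at 63.1, 58.2 and 55.5 CPM with BMP2. Its change of 0.28 did not pass (adjusted p = 0.128), but did with the length offset (0.40, adjusted p = 0.0228). Srebf1, whose product is mainly tied to fatty acid synthesis, was at 74.7 and 70.9 CPM with vehicle and at 64.1, 62.2 and 57.3 CPM with BMP2. Its difference of −0.25 did not pass (adjusted p = 0.168). Insig1 did not pass without vehicle replicate 1 (0.83), nor Stard4 without vehicle replicate 2 (0.58).

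In fatty acid synthesis, Fasn rose from 67.9 and 58.5 CPM to 97.7, 101 and 105 CPM, by 0.68 (SE 0.12, adjusted p = 0.00454), and did not pass without vehicle replicate 2 (0.58). Acaca rose by 0.43 (SE 0.12, adjusted p = 0.0369), and Aacs, which activates acetoacetate for lipid synthesis, by 0.53 (SE 0.15, adjusted p = 0.0446). Acly, the ATP citrate lyase that supplies cytosolic acetyl-CoA, had a fold change of 0.15 (adjusted p = 0.474), with ranges that overlapped. Acss2, the enzyme that makes acetyl-CoA from acetate, stood at 3.88 and 3.23 CPM with vehicle and at 7.81, 6.23 and 5.08 CPM with BMP2. Its groups were separate, yet its change of 0.85 (SE 0.36) did not pass (adjusted p = 0.165); it did without the filter (0.86). Acacb was at most 1.47 CPM in any library, and its fold change of −0.68 (SE 0.59) rests on 1 to 14 counts per library.

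With 2 vehicle libraries, many of these calls rest on both of them. Of the 15 genes that rose, 4 passed in each of the 7 fits with a library left out: Hmgcs1, Sqle, Scd1 and Scd2. Calls became fewer without vehicle replicate 1, vehicle replicate 2 or BMP2 replicate 3, among these genes and over all tested genes as well. Counts over all genes are given below with the other processing results. Leaving out BMP2 replicate 3 left 10 of the 15 genes called. The median log2 fold change of the 29 genes was 0.69, 0.64 and 0.63 without these 3 libraries in turn. Without vehicle replicates 1 and 2 in turn, the changes of Cyp51 (0.74 and 0.67), Msmo1 (0.71 and 0.66), Nsdhl (1.01 and 0.96), Hsd17b7 (0.61 and 0.64), Aacs (0.45 and 0.61) and Acaca (0.50 and 0.37) did not pass, and Lss did not without replicate 1 (0.69). Without BMP2 replicate 3 Msmo1 (0.63), Nsdhl (0.91), Hsd17b7 (0.58), Aacs (0.54) and Acaca (0.43) did not pass, without BMP2 replicate 1 neither Nsdhl (0.84) nor Aacs (0.40), and without BMP2 replicate 2 not Acaca (0.39). All of these values kept the sign of the rise.

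**Figure D2:**
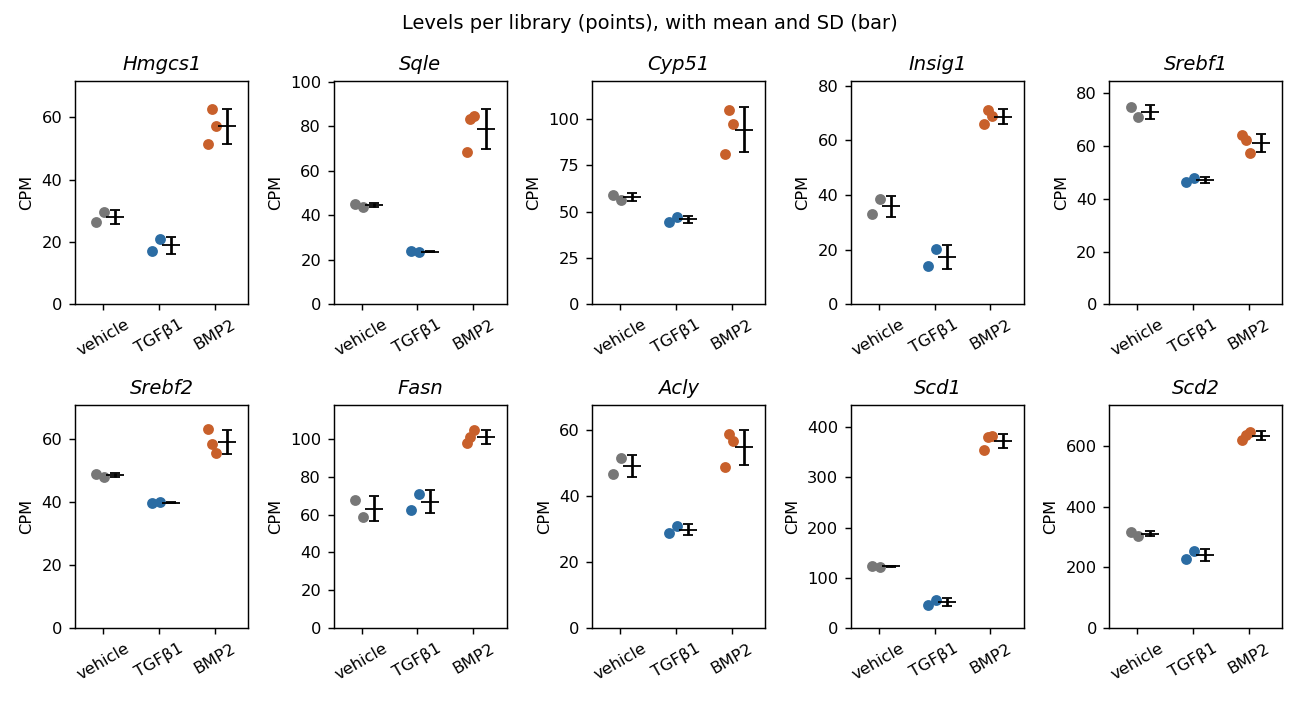
CPM of 10 of the genes per library (points), with the mean and SD of each group beside them; each axis starts at 0. Scd1, Scd2, Hmgcs1, Sqle, Cyp51 and Insig1 are highest in all 3 BMP2 libraries and lowest in both TGFβ1 libraries, Fasn is at a like level with vehicle and TGFβ1 (63.2 and 66.7 CPM), and Srebf1 is highest with vehicle.

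Promoter windows of these genes were read for the letters of the sterol regulatory element (TCANNCCAC) and of the NF-Y site (CCAAT) on both strands, since SREBP is known to act together with NF-Y. RefSeq windows (GRCm38.p6, 250 bases before to 50 after a start) matched 24 of the 30 genes. CCAAT was found in 21 of the 24 genes (87.5%), against 41.1% of 27025 genes with a window, and TCANNCCAC in 3, Hmgcs1, Acly and Acacb (12.5%, against 4.78%). Of the 11 genes with a window that rose with BMP2, 9 held CCAAT and 1 held TCANNCCAC, beside 11 and 2 of the 12 tested genes that did not pass. A match is a description of the letters and no evidence of binding. The 250 bases before the start are printed 5′ to 3′ for Hmgcs1, Hsd17b7 and Fasn, which rose with BMP2 and hold 3 CCAAT matches there, and for Mvk, which holds 5 and was not shown to rise; capitals mark the matches (ATTGG is CCAAT on the other strand). In Hmgcs1 the first capitals after the second ATTGG are the sterol element, and in Fasn the last 2 matches overlap.
Hmgcs1, chr13:119690101-119690350, plus strand: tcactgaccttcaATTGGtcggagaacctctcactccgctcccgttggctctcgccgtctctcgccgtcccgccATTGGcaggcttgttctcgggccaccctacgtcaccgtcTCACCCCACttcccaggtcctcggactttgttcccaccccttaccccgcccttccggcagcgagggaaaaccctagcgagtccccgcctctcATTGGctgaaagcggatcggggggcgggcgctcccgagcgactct
Hsd17b7, chr1:169969206-169969455, minus strand: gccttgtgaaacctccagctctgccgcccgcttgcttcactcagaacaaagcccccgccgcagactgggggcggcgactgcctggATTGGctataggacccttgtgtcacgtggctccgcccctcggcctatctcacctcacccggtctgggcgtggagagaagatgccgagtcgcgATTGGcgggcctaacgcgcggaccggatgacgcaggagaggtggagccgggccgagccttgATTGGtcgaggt
Fasn, chr11:120824548-120824797, minus strand: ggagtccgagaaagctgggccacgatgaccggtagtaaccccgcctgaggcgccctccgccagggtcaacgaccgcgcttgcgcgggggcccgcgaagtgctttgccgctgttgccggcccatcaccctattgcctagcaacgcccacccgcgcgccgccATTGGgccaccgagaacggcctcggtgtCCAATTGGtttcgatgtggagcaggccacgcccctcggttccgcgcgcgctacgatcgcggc
Mvk, chr5:114444019-114444268, plus strand: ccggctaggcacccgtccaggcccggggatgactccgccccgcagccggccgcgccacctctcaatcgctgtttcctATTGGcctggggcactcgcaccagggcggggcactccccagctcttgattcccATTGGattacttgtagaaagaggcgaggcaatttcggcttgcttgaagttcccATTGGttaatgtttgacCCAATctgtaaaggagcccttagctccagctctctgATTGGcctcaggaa

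The second question is the effect of TGFβ1 against the same 2 vehicle libraries. Here 13 of the 29 genes fell and 4 rose, where 25.8% of all tested genes fell and 30.4% rose (56.2% together), so a large share of calls is the background here. Both TGFβ1 libraries were below both vehicle libraries in 18 of the 29 genes and above them in 7 (40.1% and 40% of all tested genes). The median log2 fold change was −0.35, beside −0.02 over all tested genes. With the length offset 10 fell and 4 rose (23.6% and 25.3% of all), and the median was −0.22, beside −0.03. By step, 4 of 6 genes of acetyl supply and fatty acid synthesis and 3 of 3 of elongation and desaturation fell (3 and 2 with the length offset), and 3 of 5 mevalonate genes rose and 1 fell (2 and 0 with the offset). Differences between steps were not tested. Of the 10 genes from squalene to cholesterol 3 fell and 1 rose, and of the 5 control and transport genes 2 fell.

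Scd1 stood at 45.4 and 56.7 CPM with TGFβ1, below the 124 and 123 CPM of vehicle. It fell by 1.27 on the log2 scale (SE 0.14, adjusted p = 2.92e-05), and by 0.95 with the length offset. Elovl6 fell from 17.9 and 19.6 CPM to 8.39 and 6.11 CPM (−1.37, SE 0.18, adjusted p = 8.89e-05; −0.94 with the offset). For both genes the TGFβ1 and vehicle libraries were far apart. Acly fell from 46.8 and 51.6 CPM to 28.8 and 31.1 CPM (−0.72, SE 0.13, adjusted p = 0.00104), and Aacs from 26.6 and 29.7 CPM to 18.02 and 16.6 CPM (−0.70, SE 0.16, adjusted p = 0.00421); with the offset the values were −0.60 and −0.86. Each of these 4 passed in every fit with a library left out. Acaca fell by 0.61 but by 0.11 with the offset, which did not pass, and Scd2 by 0.37 but by 0.07. Scd2 also lost its call without BMP2 replicate 2 (−0.37), TGFβ1 replicate 1 (−0.29), vehicle replicate 1 (−0.38) or vehicle replicate 2 (−0.40). Fasn stood at 62.5 and 71.0 CPM, a range that overlapped that of vehicle (0.08, adjusted p = 0.622), and passed as a rise with the offset for the deposited gene length (0.43). Acss2 differed between its TGFβ1 libraries (0.809 and 2.37 CPM) and was called at −1.16 (SE 0.44, adjusted p = 0.0448); leaving out TGFβ1 replicate 1 gave −0.57, vehicle replicate 1 −1.07, vehicle replicate 2 −1.29 and BMP2 replicate 2 −1.16, and it passed in none of these fits. Without TGFβ1 replicate 3 it was −2.11 and passed.

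Of the control genes, Insig1 was at 14.2 and 20.4 CPM with TGFβ1, below the 33.2 and 38.6 CPM of vehicle. It fell by 1.06 (SE 0.17, adjusted p = 4.32e-04), and by 0.99 with the offset. Srebf1 fell from 74.7 and 70.9 CPM to 46.5 and 48.0 CPM (−0.62, SE 0.12, adjusted p = 0.00107; −0.70 with the offset). Srebf2 was lower in both TGFβ1 libraries, at 39.6 and 39.8 CPM, but its change of −0.29 did not pass (adjusted p = 0.0585), and did with the offset (−0.30, adjusted p = 0.0423) and without BMP2 replicate 1 (−0.29). Insig2 (0.04) and Stard4 (−0.01) had ranges that overlapped those of vehicle.

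Among sterol enzymes Dhcr7 fell the most, from 9.63 and 8.13 CPM to 3.53 and 3.66 CPM (−1.30, SE 0.20, adjusted p = 2.98e-04; −1.39 with the offset). Sqle fell from 45.2 and 43.9 CPM to 24.0 and 23.5 CPM (−0.91, SE 0.14, adjusted p = 2.85e-04; −0.87 with the offset). In both genes the 2 groups were well apart, and both passed with each library left out. Lss fell by 0.51 (adjusted p = 0.0343) and Hmgcs1 by 0.57 (adjusted p = 0.00961), and neither passed with the offset (−0.36 and −0.35). In DESeq2 (−0.51) and in the fit with a block for replicate number (−0.42) Lss did not pass either. Lss did not pass without TGFβ1 replicate 3 (−0.36) or vehicle replicate 2 (−0.33), nor Hmgcs1 without TGFβ1 replicate 1 (−0.42) or vehicle replicate 2 (−0.48). The other sterol genes that did not pass were Fdft1 (0.35), Cyp51 (−0.33), Msmo1 (−0.35), Nsdhl (0.71), Hsd17b7 (−0.26) and Sc5d (−0.02), and Fdps (0.37) in the mevalonate part. Of these Cyp51 passed without BMP2 replicate 1 (−0.33), Msmo1 without TGFβ1 replicate 1 (−0.63), and Nsdhl without BMP2 replicate 2 (0.71) and with the offset (0.78).

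The 4 genes that rose with TGFβ1 were among the 5 of the set with a principal transcript under 2000 nt. Pmvk, the phosphomevalonate kinase gene (1194 nt), stood at 6.42 and 6.70 CPM with vehicle and at 50.5 and 24.5 CPM with TGFβ1. The TGFβ1 libraries differed widely from each other, and both were above vehicle. It rose by 2.51 (SE 0.32, adjusted p = 8.75e-05), and by 1.34 with the offset (adjusted p = 1.90e-04). Tm7sf2 (1471 nt) rose by 1.70 (SE 0.41, adjusted p = 0.00465), from 0.939 ± 0.194 to 3.10 ± 0.395 CPM, and by 1.16 with the offset. It shares 12.1% of its exon bases with Vps51 on the same strand. Mvk, the mevalonate kinase gene (1660 nt), rose by 1.10 (SE 0.26, adjusted p = 0.00442) and by 0.64 with the offset (adjusted p = 0.0312). Mvd (1756 nt) rose by 0.74 (SE 0.24, adjusted p = 0.0240), but did not pass with the offset (0.32), or without TGFβ1 replicate 3 (0.68) or either vehicle library (0.72 and 0.71). In DESeq2 Mvd did not pass either (0.74). Fdps (1382 nt) had a fold change of 0.37 without and −0.22 with the offset. The length trend and the ligand cannot be told apart in these libraries.

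**Figure D3:**
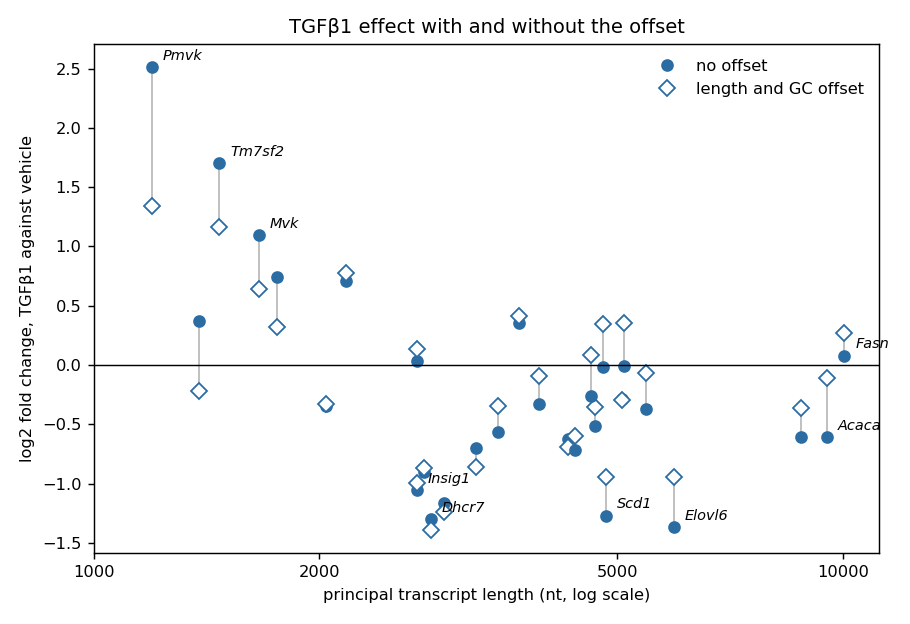
Log2 fold change of TGFβ1 against vehicle (y axis) of the 29 genes by principal transcript length (x axis, nt, log scale), without an offset (filled circles) and with the length and GC offset (open diamonds), joined per gene. Pmvk moves from 2.51 to 1.34 and Acaca from −0.61 to −0.11, while Insig1 (−1.06 and −0.99) and Dhcr7 (−1.30 and −1.39) move little.

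Markers of cell types were read beside these changes. Of all tested genes 25.8% fell and 30.4% rose with TGFβ1, and 5.33% rose and 6.15% fell with BMP2. With the length offset 23.6% fell and 25.3% rose with TGFβ1. Of 7 chondrocyte markers 6 fell with TGFβ1 and 0 rose, and their summed level was 33060 and 38850 CPM against 51251 and 51207 CPM with vehicle. Of 4 tested fibroblast markers 3 rose with TGFβ1, to a sum of 2134 and 2504 CPM from 1031 and 1035 CPM, while Dpt stayed at or under 1.203 CPM in every library. With BMP2 the chondrocyte sum was 45210 to 50459 CPM, with 1 of 7 risen and 0 fallen, and 0 of 4 fibroblast markers were called by edgeR. At an unadjusted p under 0.05 in edgeR, the chondrocyte marker Col11a1 was lower with BMP2 (−0.31) and Hapln1 was higher (0.42), beside the called Acan (0.64). Of the fibroblast markers Col3a1 (−0.41) and Pdgfra (−0.58) were lower and Lum (0.41) was higher at that threshold. Among 6 adipocyte markers only Fabp4 could be tested: it stood at 4.68 and 8.13 CPM with vehicle, 56.5 and 49.0 CPM with TGFβ1 and 8.49, 17.4 and 17.4 CPM with BMP2, while Adipoq and Cidec stayed at or under 0.0941 and 0.0858 CPM in every library. Fabp4 rose with TGFβ1 by 3.03 on the log2 scale, and by 0.88 with the length offset. With BMP2 its change of 1.14 did not pass in edgeR (adjusted p = 0.0524), but did with the length offset (1.11, adjusted p = 0.0353). The 6 macrophage markers summed to 14.1 to 31.5 CPM, and of 5 tested 2 rose and 1 fell with TGFβ1. With the length offset 0 of these 5 rose and 2 fell with TGFβ1, while the chondrocyte and fibroblast counts stayed at 6 fallen and 3 risen. With BMP2 0 of the 5 macrophage markers were called by edgeR, and all 5 fold changes were negative. Lyz2 (−0.80) and Adgre1 (−1.40) had an unadjusted p under 0.05 in edgeR. With the length offset Lyz2 fell with BMP2 (−0.85), and Hapln1 of the chondrocyte markers rose (0.44). The 4 endothelial markers summed to at most 1.72 CPM (Pecam1 was at 0 in both vehicle libraries and at most 1.59 CPM in the others) and the 4 of skeletal muscle to at most 1.54 CPM. The part of these shifts in the lipid genes was not tested.

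**Figure D4:**
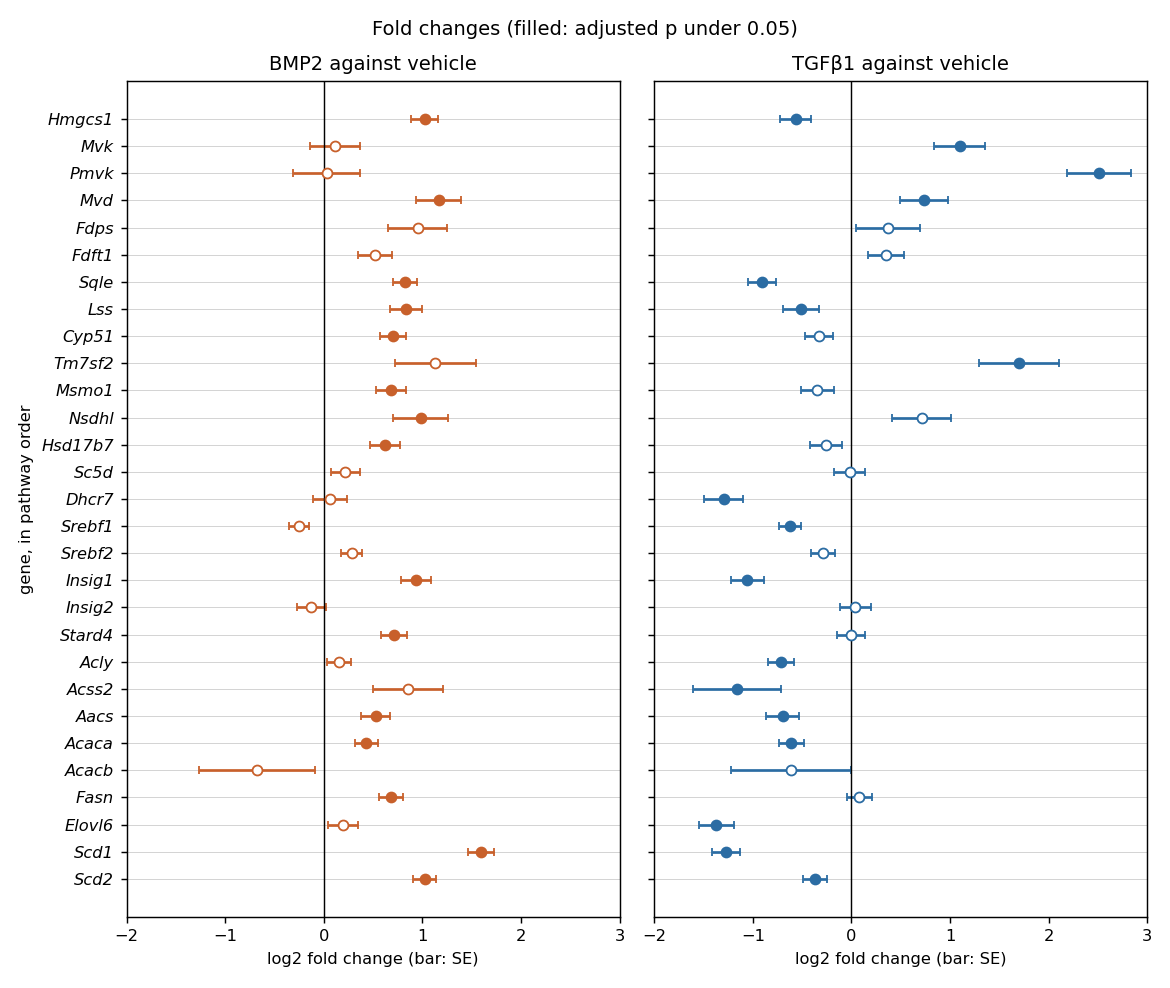
Log2 fold change (points, bars give the SE) of the 29 genes in pathway order for BMP2 (left) and TGFβ1 (right) against the same 2 vehicle libraries; filled points have an adjusted p under 0.05. On the left 15 points are filled and all lie above 0, and on the right 13 filled points lie below 0 and 4 above.

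The third comparison sets BMP2 against TGFβ1 directly, and it uses the same BMP2 and TGFβ1 libraries as the first 2. Of the 29 genes 19 were higher with BMP2 and 2 were lower, where 28.1% of all tested genes were higher and 33.3% lower (61.4% together). The median log2 difference was 0.87, beside −0.02 over all. In 21 genes every BMP2 library was above both TGFβ1 libraries and in 3 below (35.1% and 38.6% of all tested genes). With the length offset 21 were higher and 1 lower (27.4% and 28.3% of all). All 19 and both lower genes passed in each of the 7 fits with a library left out. Of the genes higher with BMP2, Scd1 differed the most, at 356 to 382 CPM with BMP2 and 45.4 and 56.7 CPM with TGFβ1, a log2 difference of 2.87 (SE 0.14, adjusted p = 3.75e-08). Acss2 followed with 2.01 (SE 0.37), which was 1.43 to 2.96 with a library left out, and then Insig1 with 1.99 (SE 0.16), Sqle with 1.73 (SE 0.13), Hmgcs1 with 1.59 (SE 0.14) and Elovl6 with 1.57 (SE 0.16).

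Both SREBP genes were higher with BMP2 than with TGFβ1, Srebf1 by 0.37 (SE 0.11, adjusted p = 0.0111) and Srebf2 by 0.57 (SE 0.11, adjusted p = 9.19e-04). Srebf1 did not pass in the fit with a block for replicate number (0.37). Fasn (0.60), Acly (0.87), Acaca (1.04) and Aacs (1.22) were higher as well, so that of 6 genes of acetyl supply and fatty acid synthesis only Acacb did not pass (−0.06). The 2 lower genes were Pmvk (−2.48) and Mvk (−0.98). With the offset these values were −1.30 and −0.47, and that of Mvk did not pass (adjusted p = 0.0528). Mvd (0.43) and Fdps (0.58) passed with the offset only, at 0.91 and 1.18. Tm7sf2 (−0.57), Nsdhl (0.28), Fdft1 (0.17), Sc5d (0.24) and Insig2 (−0.16) did not pass. Sc5d did without TGFβ1 replicate 1 (0.48) and Insig2 without TGFβ1 replicate 3 (−0.36).

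A further list of 18 genes of the same paths was read beside the set. With BMP2 4 of the 18 rose and 0 fell in edgeR (5.33% and 6.15% of all tested genes), with none lower at an unadjusted p under 0.05, and DESeq2 called 5 and 0. Among them were the malic enzyme gene Me1 (1.17, SE 0.12), which supplies NADPH for fatty acid synthesis, and the desaturase genes Fads2 (1.08, SE 0.14) and Fads1 (0.69), which make polyunsaturated fatty acids. Fads1 did not pass without vehicle replicate 1 (0.69) or without vehicle replicate 2 (0.70), and each of these fits called 2 of the 18 as risen. With TGFβ1 8 fell and 5 rose (25.8% and 30.4% of all), and with the length offset 9 fell and 5 rose (23.6% and 25.3%). Elovl5 (−1.28), an elongase of polyunsaturated fatty acids, and Fads2 (−1.25) fell the most, and Ebp (2.47, SE 0.46), a sterol isomerase gene, and Tecr (2.14, SE 0.44), a reductase of fatty acid elongation, rose the most, by 2.25 and 0.76 with the offset. Their TGFβ1 libraries were far apart, at 119.8 and 33.9 CPM for Ebp and at 618 and 179.7 CPM for Tecr. Without TGFβ1 replicate 1 the rises were 1.29 for Ebp and 0.99 for Tecr, and both passed. Between the ligands 8 were higher with BMP2 and 4 lower (28.1% and 33.3% of all), led by Fads2 (2.33) and Fads1 (1.89), and by Ebp (−2.63, and −1.46 without TGFβ1 replicate 1) and Tecr (−2.47, and −1.32). Scap, whose protein escorts SREBP out of the endoplasmic reticulum, was not called in any comparison (−0.07 with BMP2 and −0.15 with TGFβ1 against vehicle, 0.08 between the ligands). Mbtps1 and Mbtps2, other regulators in this list, fell with TGFβ1 (−0.66 and −1.12, and −0.56 and −0.82 with the length offset). Against vehicle neither was called with BMP2 (−0.19 and 0.11). Both were higher with BMP2 than with TGFβ1 (0.47 and 1.23). Mbtps1 did not pass there with the offset for the deposited gene length (0.20).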

How the data were processed

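RNA from 7 libraries was sequenced. The deposited table holds whole-number read counts per gene name, 1 column per library, with a gene length per name; the submitters' processing notes name cutadapt, STAR 2.4.2a, Subread, featureCounts and DESeq2 and the build mm10, without roles, and no source used here gives strand or multi-mapping settings. Counts were fitted with edgeR 4.0.16 in R 4.3.3: filterByExpr (minimum count 10), TMM scaling, 1 coefficient per group over all 7 libraries (4 residual degrees of freedom), the 2-sided quasi-likelihood test and Benjamini-Hochberg adjustment over 13367 genes. The SE is the absolute fold change divided by the root of F. For the length offset, each gene's mean log2 CPM over the libraries was first subtracted from its log2 CPM. Each library's lowess trend of this deviation on principal transcript length, then GC (GENCODE M21), was taken in 3 rounds. It covered 98.98% of tested genes. Alternatives were DESeq2 1.42.0, its size factors, no filter, only the compared libraries, a replicate block, length offsets and each library left out. Scripts were tested on simulated data. The 30 genes were named by the list, and further pathway genes were to be the 2 strongest calls each way at a mean log2 CPM of at least 2. Fads1 (with BMP2), Scap, Mbtps1, Mbtps2, Abcg1 and Nr1h3 were added after their values were seen. Members and lists were chosen with earlier results of these data known.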

Additional observations from a re-analysis of the deposited data

How the results depend on the processing

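Over 1303 values of single genes in the 29 tested genes under 15 other settings, 1203 kept their side of the threshold, 79 no longer passed and 21 newly passed. The sign changed in 34 of the 1203, none past the threshold in either fit, Fdps and Hsd17b7 with TGFβ1 and the length offset (−0.22 and 0.09) among them. Risen genes with BMP2 against vehicle numbered 6 to 15 with a library left out and calls among further pathway genes 2 to 7, the lowest without either vehicle library; the latter (4) were 7 if no filter was used and 8 with the length offset. Genes lower with BMP2 than TGFβ1 (2) numbered 1 with the length offset and 1 with that offset and the replicate block, where TGFβ1 against vehicle had 2 risen and 8 fallen. Of further pathway genes Erg28 changed sign with TGFβ1, from 0.07 to −0.79 with the length offset and −0.88 with offset and block; the cause was not tested. With the replicate block alone, 10 genes rose with BMP2 and 0 fell, and 4 rose and 10 fell with TGFβ1. Over all tested genes, the TGFβ1 counts with this block stayed within a factor of 1.5 of 4067 risen and 3450 fallen. The count of genes fallen with TGFβ1 did so with offset and block too. Libraries of the same replicate number showed no positive correlation of deviations from the group mean (−0.139 and −0.0801 for BMP2 with vehicle, −0.0266 and −0.000945 for BMP2 with TGFβ1, −0.0238 for TGFβ1 with vehicle). In a group of 2 the deviations mirror each other, so these values cannot settle whether replicate numbers pair the libraries. Over all genes, BMP2 against vehicle gave 713 risen and 822 fallen, but leaving out vehicle replicate 1 gave 276 and 395, vehicle replicate 2 gave 245 and 312 and BMP2 replicate 3 gave 472 and 509, against 354 and 417 with the block and 474 and 434 with offset and block; risen genes with TGFβ1 were 4067, and 2673 with offset and block. Idi1, Acacb, Tm7sf2, Fdps and Acss2 had few counts, which limits their precision.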

Other observations

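Genes that move cholesterol out of the cell, store it or answer oxysterols through LXR were read as a further list of 10, of which 9 were tested. With TGFβ1 3 rose and 3 fell, where 30.4% of all tested genes rose and 25.8% fell. Npc2, which carries cholesterol out of lysosomes, rose by 1.63 (SE 0.22, adjusted p = 1.31e-04 in edgeR), from 84.2 and 102 CPM with vehicle to 363 and 212 CPM. Abcg1, a sterol exporter gene, rose by 2.67 at low levels (0.267 and 0.718 CPM with vehicle, 3.16 and 3.36 CPM with TGFβ1), and the LXR gene Nr1h3 by 1.67. Soat1, which esterifies cholesterol for storage, fell by 1.45 (SE 0.14), from 163 and 148 CPM to 55.5 and 58.1 CPM, and by 0.87 with the length offset. Mylip, whose product marks lipoprotein receptors for degradation, fell by 0.71. Abca1, another exporter gene, fell by 0.68, but not past the threshold in DESeq2 (−0.69), with the length offset (−0.17), without TGFβ1 replicate 1 (−0.53) or without vehicle replicate 1 (−0.44).

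With BMP2 against vehicle 0 of the 9 were called by edgeR (11.5% of all tested genes were), where 3 had an unadjusted p under 0.05 (Nr1h3 at 0.84, the lysosomal cholesterol exporter Npc1 at 0.56 and Mylip at −0.40), and DESeq2 called 1, Npc1 (0.58). Between the ligands Soat1 (1.54), Abca1 (0.80) and Npc1 (0.78) were higher with BMP2, and Abcg1 (−3.24), Npc2 (−1.58) and Nr1h3 (−0.83) were lower, beside 28.1% of all tested genes higher and 33.3% lower. With the length offset Abca1 (0.37) and Nr1h3 (−0.44) did not pass.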
